A study of Mus musculus with 18 samples.

Results

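The factors of nonsense-mediated decay (NMD) examined here are the 9 genes Upf1, Upf2, Upf3a, Upf3b, Smg1, Smg5, Smg6, Smg8 and Smg9, chosen by name from a count table of 54232 genes. All 9 were found in the table and all 9 passed the filter on low counts, which kept 21058 genes. RNA was measured in round spermatids (RS), haploid male germ cells past meiosis and ahead of elongation, isolated from testes of mice aged 75 to 85 days. WT mice were compared with GRTH-KO mice, which lack the helicase GRTH encoded by Ddx25 in every cell, and with GRTH-KI mice, which carry a human GRTH gene with a missense mutation and have no phosphorylated GRTH. Each genotype had 6 libraries, 18 in all, made from total RNA without selection for polyA. In both mutants spermatids stop before they elongate, so their RS come from an arrested testis and WT RS from one that goes on to make sperm.

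NMD destroys mRNAs whose translation stops too early, and it also sets the level of many normal transcripts. UPF1, an RNA helicase, joins the terminating ribosome, and UPF2 with UPF3A or UPF3B links it to the exon junction complex left on the mRNA by splicing. The kinase SMG1, whose activity is controlled by its partners SMG8 and SMG9, then phosphorylates UPF1, and phosphorylated UPF1 recruits SMG6, an endonuclease that cuts the mRNA, or SMG5, an adaptor that leads to deadenylation and decapping. In male germ cells, UPF proteins and GRTH are found in the chromatoid body, a cytoplasmic RNA granule of RS.

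The targeted gene was examined in each library before the factors. Levels are normalized CPM (a gene's count relative to the total of its library, after TMM scaling in edgeR). Ddx25 had 567 ± 24.7 CPM in WT and 70.0 ± 14.8 CPM in KO (SD, n = 6 each). These counts are of the mouse gene, while KI mice carry a human GRTH gene. The paper reports that the non-phosphorylated protein is unaffected in KI, so Ddx25 counts do not measure GRTH there. In 5 KI libraries Ddx25 lay between 0.0456 and 0.519 CPM. The library labelled KI 4 had 56.9 CPM, which falls in the KO range of 47.7 to 90.9. That library also differed least of all from KO 2. Its pair index (the median squared difference of counts, relative to counting noise, which gives 1) was 1.59 with KO 2. A further 6 pairs within a genotype (WT 1 and 2, WT 3 and 4, WT 5 and 6, KO 4 and 5, KI 1 and 2, KI 3 and 5) had an index up to 3.24, while the other 146 pairs lay between 4.73 and 28. If the members of a pair are not independent, the p-values here are too small. Results are therefore also given without the library labelled KI 4 and with close pairs summed. Total counts ran from 18766971 to 26776555 per library, where 3 counts correspond to 0.112 to 0.16 CPM.

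Of the 9 factors, Smg8 was the member that passed the test of change in the mutants. Its mRNA rose 1.83-fold in KO and 1.83-fold in KI, from a mean of 11.4 CPM in WT. The other 8 factors did not pass the test in either mutant, and no factor was called between KI and KO. In KO the nearest was Smg5, at a log2 fold change of 0.41 (95% interval 0.03 to 0.79, adjusted p = 0.113, edgeR). A gene was called where edgeR's quasi-likelihood test of any change gave a Benjamini-Hochberg adjusted p under 0.1 over all genes tested. In KO against WT, 1 of 9 factors was called higher and 0 lower, where 16.4% of all genes tested were called higher and 13.5% lower. In KI against WT, 1 of 9 was called higher and 0 lower, where 16.1% of all genes were called higher and 15.4% lower. These counts are below the shares over all genes, and 9 genes are too few to read more from them. At an unadjusted p under 0.05 there were 2 of 9 factors in KO and 1 of 9 in KI. Over all genes tested there were 7199 of 21058 in KO and 7504 in KI. The median log2 fold change over the 9 factors was 0.05 in KO and 0.08 in KI, beside 0.03 and 0.05 over all genes tested. KO and KI were compared with the same WT libraries, so their changes share that reference.

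**Figure D1:**
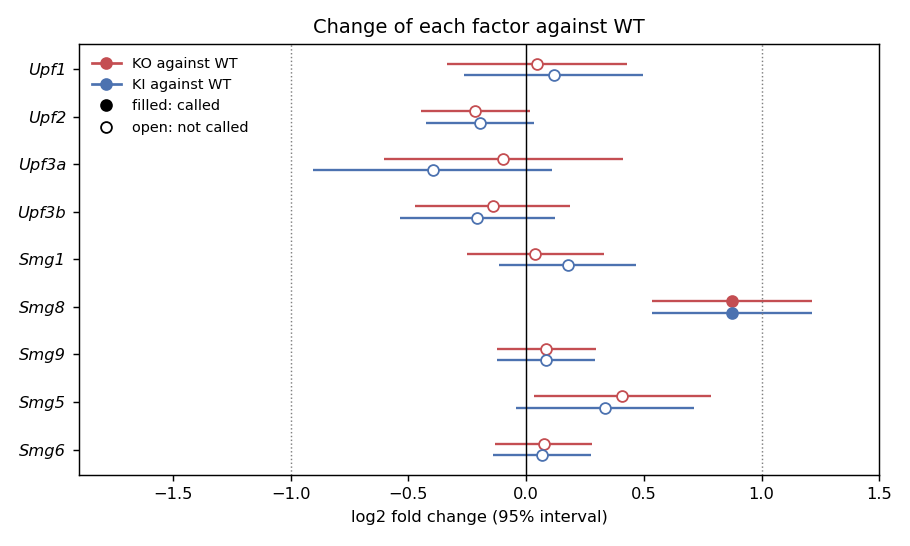
The log2 fold change of each factor (x axis, with the 95% interval as a line) in KO (red) and KI (blue) against WT, with filled circles for called genes and dotted lines at a change of 1 log2 unit either way. Smg8 lies at 0.87 in both mutants with intervals above 0, and the remaining circles are open.

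Each factor was tested in the same model for a change past 1 log2 unit (edgeR's glmTreat), and 0 of 9 passed in either mutant, with 0 of 9 at an unadjusted p under 0.05. DESeq2 also gave 0. Over all genes, 1.73% passed this test in KO and 1.95% in KI, and 730 and 828 of 21058 had an unadjusted p under 0.05. Between KI and KO 0 of 9 factors were called, and 0 by DESeq2, where 0.076% of all genes were called higher in KI and 0.0237% lower. At an unadjusted p under 0.05 there were 0 of 9 factors, beside 931 of 21058 genes tested. The differences between KI and KO ran from -0.30 for Upf3a to 0.14 for Smg1 on the log2 scale. For Smg8 the difference was near 0, with a 95% interval from -0.33 to 0.33, which allows a fold between 0.793 and 1.26. Without the library labelled KI 4, 60 genes were called higher in KI than in KO and 51 lower of 21257 tested, against 16 and 5 of 21058 with it. The factors called were again 0 without that library, and Smg8 then differed between KI and KO by -0.08 (standard error 0.16, adjusted p = 0.897, edgeR). In bulk RNA such as this, fewer cells that make a transcript and less of it per cell cannot be told apart.

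Marker genes were summed to check the cell type. The 8 round spermatid markers summed to 559 to 1008 CPM for WT, 416 to 993 for KO and 431 to 604 for KI. Of these 8, 1 was called lower in KO and 4 in KI, with 0 higher in either and a median log2 fold change of -0.11 and -0.45. The 8 spermatocyte markers summed to 789 to 1069 CPM for WT, 866 to 1082 for KO and 827 to 1215 for KI. RNA of these marker genes of the preceding stage was thus present in every genotype. Whether it came from spermatocytes or from RS was not tested. The spermatocyte markers were called in both directions, 3 higher and 2 lower in KO and 2 higher and 1 lower in KI. The 8 genes of spermatid elongation were all lower in both mutants, at 14216 to 19771 CPM for WT, 1662 to 4190 for KO and 2203 to 3417 for KI. All 7 Leydig cell markers were higher in both mutants, from 10.8 to 22.4 CPM in WT to 34.2 to 58.9 in KO and 14.7 to 74.8 in KI, although the tubules had been treated to remove these cells. The 8 spermatogonium markers summed to 30.5 to 41.1 CPM for WT, 34.3 to 73.0 for KO and 21.3 to 76.5 for KI. Of the 7 that were tested, 2 were called higher in KO and 1 in KI. Sertoli cell markers summed to at most 15.5 CPM and macrophage markers to at most 20.7 CPM. The Sertoli cell marker Fshr was at or under 3 counts in every WT and KO library. Of the 7 Sertoli cell markers tested, 2 were called lower in KO and 3 in KI, with 0 higher. Of the 6 macrophage markers tested, 1 was called higher and 1 lower in KO, and 2 higher and 1 lower in KI. Over all genes tested, 16.4% were called higher and 13.5% lower in KO, and 16.1% and 15.4% in KI.

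The UPF proteins come first in the pathway. Upf1 (ENSMUSG00000058301, GRCm38 chromosome 8, 70331525 to 70353278, minus strand) had 81.3, 126 and 134 CPM as the lowest, median and highest WT library, 108, 111 and 156 in KO, and 86.2, 116 and 181 in KI. The genotypes overlapped, and the KI libraries were spread most widely. Mean levels were 116 ± 22.1 CPM for WT, 120 ± 18.4 for KO and 126 ± 41.6 for KI (SD, n = 6 each). Against WT, the log2 fold change of KO was 0.05 with a standard error of 0.18 (adjusted p = 0.901, edgeR), and that of KI was 0.12 with a standard error of 0.18 (adjusted p = 0.704, edgeR).

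Upf2, the bridge between UPF1 and the UPF3 proteins (ENSMUSG00000043241, chromosome 2, 5951469 to 6056703, plus strand), had 116, 131 and 149 CPM as the lowest, median and highest WT library, 101, 111 and 142 in KO, and 94.8, 117 and 130 in KI. The genotypes overlapped, with 1 KO library, KO 1, among the higher WT libraries and the other 5 at or below 116 CPM. Upf2 differed from WT by a log2 fold change of -0.22 in KO (95% interval -0.44 to 0.01, adjusted p = 0.176, edgeR) and -0.20 in KI (95% interval -0.43 to 0.03, adjusted p = 0.214, edgeR). Without KO 1, Upf2 was called lower in KO, at -0.29 (adjusted p = 0.0594, edgeR), where the adjusted p ran from 0.0594 to 0.528 over 28 alternatives.

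Upf3a and Upf3b are paralogs that bind the exon junction complex. Upf3a (ENSMUSG00000038398, chromosome 8, 13785615 to 13799193, plus strand) had the widest spread of the 9 factors in WT and KO, with a coefficient of variation of 32.2% and 43.6%. Its lowest, median and highest libraries were 136, 195 and 297 CPM in WT, 105, 189 and 350 in KO, and 118, 153 and 219 in KI. The close pairs WT 1 and 2 were its highest WT libraries and WT 3 and 4 its lowest. The log2 fold change was -0.10 in KO (95% interval -0.60 to 0.41, adjusted p = 0.837, edgeR) and -0.40 in KI (95% interval -0.90 to 0.11, adjusted p = 0.264, edgeR), so changes of a considerable size were not detectable for this gene.

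X-linked Upf3b (ENSMUSG00000036572, chromosome X, 37091678 to 37110322, minus strand) was the less abundant paralog, with 38.8, 46.5 and 52.4 CPM as the lowest, median and highest WT library, 24.4, 40.3 and 63.9 in KO, and 30.9, 40.5 and 46.3 in KI. Both the lowest and the highest of the 18 libraries were KO libraries, KO 3 and KO 1. For Upf3b the log2 fold change was -0.14 in KO (adjusted p = 0.588, edgeR) and -0.21 in KI (adjusted p = 0.387, edgeR).

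Within a library the balance of the paralogs could be read without scaling between libraries. Per kilobase of exon, the Upf3a to Upf3b ratio was 3.08 ± 0.858 for WT, 3.12 ± 0.506 for KO and 2.69 ± 0.384 for KI (SD, n = 6 each). Upf3a exceeded Upf3b in all 18 libraries, by at least 1.94 times. In exact permutation tests of the log2 ratio, two-sided, with 6 libraries against 6, KO differed from WT by 0.05 (p = 0.814) and KI by -0.15 (p = 0.426, adjusted p = 0.640 over 6 ratio comparisons). KI differed from KO by -0.21 (exact permutation p = 0.149, adjusted p = 0.320). The smallest p this design allows is 0.00216.

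The SMG1 kinase and its partners act next. Smg1 (ENSMUSG00000030655, chromosome 7, 118131308 to 118243670, minus strand) encodes the kinase of UPF1. It had 224, 290 and 332 CPM as the lowest, median and highest WT library, 252, 288 and 348 in KO, and 256, 310 and 401 in KI. The 2 highest KI libraries, KI 3 and KI 5, form one of the close pairs. Relative to WT, Smg1 differed by 0.04 log2 units in KO (95% interval -0.25 to 0.33, adjusted p = 0.889, edgeR) and by 0.18 in KI (95% interval -0.12 to 0.47, adjusted p = 0.406, edgeR).

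Smg8 (ENSMUSG00000020495, chromosome 11, 87077732 to 87086774, minus strand) encodes the SMG1 partner that holds the kinase in check. Its lowest, median and highest libraries were 8.67, 11.1 and 14.3 CPM in WT, 17.4, 20.2 and 25.9 in KO, and 14.2, 20.6 and 26.6 in KI. Every KO library lay above every WT library. The libraries of KO and WT did not overlap, in either direction, for 13.1% of all genes tested and for 1 of the 9 factors. In KI, 5 libraries lay above all of WT and KI 5 lay just below the highest WT library, so the genotypes overlapped, and 0 of 9 factors were free of overlap in KI against 13.9% of all genes. Mean levels were 11.4 ± 2.21 CPM for WT, 20.9 ± 3.86 for KO and 20.9 ± 4.72 for KI (SD, n = 6 each), from 214 to 278 counts per library in WT and 304 to 628 in the mutants. Smg8 rose by 0.87 log2 units in KO (95% interval 0.53 to 1.22, adjusted p = 0.000415, edgeR) and by 0.87 in KI (95% interval 0.53 to 1.21, adjusted p = 0.000378, edgeR), each with a standard error of 0.16.

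The rise of Smg8 was called with and without the libraries that stood apart. Without the library labelled KI 4, which had the highest Smg8 level of KI, the log2 fold change in KI was 0.79 (adjusted p = 0.00127, edgeR). With close pairs summed it was 0.92 in KO (adjusted p = 0.00843, edgeR) and 0.93 in KI (adjusted p = 0.0109, edgeR). With close pairs summed and that library left out it was 0.83 in KI (adjusted p = 0.0325, edgeR). Over all 28 alternatives it lay between 0.80 and 0.95 in KO and between 0.79 and 1.0 in KI, and was called in each. In the same mutants the 7 Leydig cell markers rose and the 8 elongation genes fell. Of 8 round spermatid markers, 1 fell in KO and 4 in KI. Of 8 spermatocyte markers, 3 rose and 2 fell in KO, and 2 rose and 1 fell in KI. Spermatogonium markers rose for 2 of 7 tested in KO and 1 in KI, and Sertoli cell markers fell for 2 of 7 tested in KO and 3 in KI. Over all genes tested, 16.4% were called higher and 13.5% lower in KO, and 16.1% and 15.4% in KI. The part of these markers in the change of Smg8 was not tested.

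Smg9, which joins SMG8 on the kinase (ENSMUSG00000002210, chromosome 7, 24399619 to 24422778, plus strand), had 66.3, 71.9 and 84.6 CPM as the lowest, median and highest WT library, 71.1, 77.1 and 93.5 in KO, and 72.5, 79.0 and 86.8 in KI. Its log2 fold change was 0.09 in KO (95% interval -0.12 to 0.30, adjusted p = 0.609, edgeR) and 0.08 in KI (95% interval -0.12 to 0.29, adjusted p = 0.601, edgeR). These intervals lie below those of Smg8 in both mutants. The Smg8 to Smg9 ratio per kilobase, a comparison chosen after the values were seen and given without a test, was 0.178 ± 0.0435 for WT, 0.303 ± 0.0314 for KO and 0.308 ± 0.0829 for KI (SD, n = 6 each). It lay between 0.140 and 0.248 in WT, between 0.267 and 0.352 in KO, and between 0.189 and 0.405 in KI.

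The DNA just before the start of these partners is shown because one changed and the other was not called. Both are the 250 bases upstream of the RefSeq start on GRCm38.p6, read 5′ to 3′ on the strand of the gene, with CG dinucleotides in capitals. The Smg8 stretch is chr11:87086778-87087027 on the minus strand and the Smg9 stretch is chr7:24399378-24399627 on the plus strand.
Smg8: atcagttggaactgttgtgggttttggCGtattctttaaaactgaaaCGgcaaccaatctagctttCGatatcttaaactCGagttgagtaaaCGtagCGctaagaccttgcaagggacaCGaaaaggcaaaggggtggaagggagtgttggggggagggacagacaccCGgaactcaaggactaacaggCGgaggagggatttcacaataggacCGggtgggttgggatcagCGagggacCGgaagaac
Smg9: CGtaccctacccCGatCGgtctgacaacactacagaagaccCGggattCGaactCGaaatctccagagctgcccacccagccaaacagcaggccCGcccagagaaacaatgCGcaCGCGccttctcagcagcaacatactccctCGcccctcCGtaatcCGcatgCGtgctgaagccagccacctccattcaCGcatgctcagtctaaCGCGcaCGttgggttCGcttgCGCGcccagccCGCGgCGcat
The Smg8 stretch holds 12 CG dinucleotides and the Smg9 stretch 24, where the median over 32851 RefSeq promoters was 6. Fewer CG dinucleotides were found in 66.5% of promoters than in that of Smg8 and in 88.0% than in that of Smg9. Upf1 had the most of the 9 factors, 41, above 98.9% of promoters, and Smg8 the fewest. The palindrome TGACGTCA, the full cyclic AMP response element through which CREM activates spermatid genes, was in 1.55% of all promoters and in 0 of the 9, on either strand. This says only that these letters are not in these windows.

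**Figure D2:**
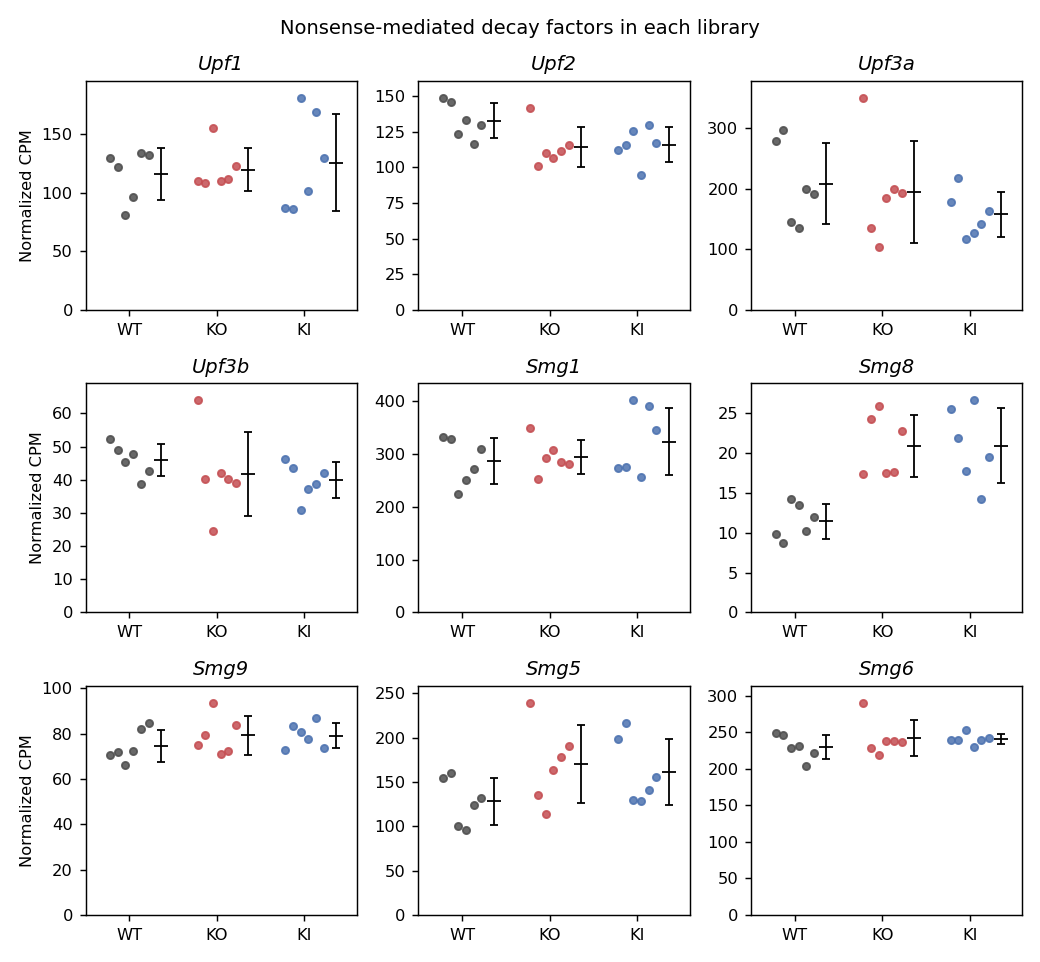
Normalized CPM (y axis, from 0) of each factor in the 6 WT, 6 KO and 6 KI libraries (points, placed from left to right by library number), with the mean and SD beside them in black. Every KO point of Smg8 lies above every WT point, while the genotypes overlap in the other 8 panels.

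SMG5 and SMG6 carry the signal to decay. Smg5 (ENSMUSG00000001415, chromosome 3, 88336260 to 88362338, plus strand) had 96.0, 128 and 161 CPM as the lowest, median and highest WT library, 113, 171 and 239 in KO, and 128, 149 and 216 in KI. Of the KO libraries, 4 lay above all of WT and 2, KO 2 and KO 3, lay inside its range. Smg5 had a log2 fold change of 0.41 in KO (95% interval 0.03 to 0.79, adjusted p = 0.113, edgeR) and 0.34 in KI (95% interval -0.04 to 0.71, adjusted p = 0.196, edgeR). The KO value is next to the threshold, with an adjusted p from 0.0403 to 0.349 over 28 alternatives, 8 of which called it. Leaving out WT 1, WT 2, KO 2, KO 3 or KI 2 brought Smg5 past the threshold in KO, with an adjusted p of 0.0444 without KO 3 (edgeR).

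Smg6 (ENSMUSG00000038290, chromosome 11, 74925823 to 75164448, plus strand) had 204, 229.8 and 248.8 CPM as the lowest, median and highest WT library, 219, 238 and 290.2 in KO, and 230, 240 and 253 in KI. It varied least within a genotype, with a coefficient of variation of 7.12% among WT, 10.2% among KO and 3.0% among KI libraries. For Smg6 the log2 fold change was 0.07 in KO (95% interval -0.13 to 0.28, adjusted p = 0.667, edgeR) and 0.07 in KI (95% interval -0.14 to 0.27, adjusted p = 0.691, edgeR).

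The Smg6 to Smg5 ratio per kilobase compares the endonuclease with the adaptor inside each library. It was 1.53 ± 0.312 for WT, 1.22 ± 0.232 for KO and 1.28 ± 0.274 for KI (SD, n = 6 each). The log2 ratio differed from WT by -0.32 in KO (exact permutation p = 0.0714, adjusted p = 0.320, 6 libraries against 6, two-sided) and by -0.26 in KI (exact permutation p = 0.160, adjusted p = 0.320). KI differed from KO by 0.06 (exact permutation p = 0.725, adjusted p = 0.814). None of the 6 ratio comparisons passed, and leaving out single libraries brought none past the threshold. None passed with close pairs summed either, but too few values then remain for KO or KI against WT to pass at all. That setting therefore cannot decide the comparisons with WT.

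**Figure D3:**
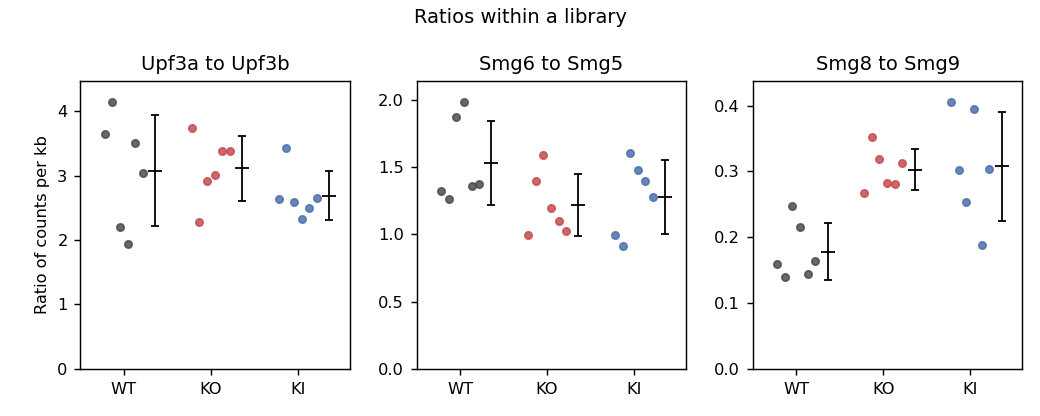
Ratios of counts per kilobase (y axis, from 0) within each of 6 libraries per genotype (points), with the mean and SD in black, for Upf3a to Upf3b, Smg6 to Smg5 and Smg8 to Smg9. The Smg8 to Smg9 ratio is at most 0.248 in WT and at least 0.267 in KO, while KI, from 0.189 to 0.405, overlaps both, and all genotypes overlap in the other 2 ratios.

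Levels of different genes were compared per kilobase of exon. The length used covers all annotated exons of a gene, so the order of genes and the size of the ratios above depend on the annotation. In WT the order of the mean level was Upf3a (35.5 ± 11.4 CPM per kilobase), Smg6 (27.2 ± 1.94), Upf1 (25.2 ± 4.78), Upf2 (24.3 ± 2.29), Smg9 (20.1 ± 1.91), Smg5 (18.4 ± 3.85), Smg1 (11.9 ± 1.84), Upf3b (11.5 ± 1.2) and Smg8 (3.55 ± 0.687), each with the SD over 6 libraries. The ranges of neighbours in this order overlapped, except that Smg8 lay below Upf3b in every library. Upf3a was above 91.6% of all genes tested and Smg8 above 58.2%. In KO Smg8 was at 6.50 ± 1.2 CPM per kilobase and Upf3b at 10.4 ± 3.17, and their ranges overlapped. In KI Smg8 was at 6.49 ± 1.47 and remained last. First place in KI was held by Smg6 (28.5 ± 0.854), followed by Upf1 (27.3 ± 9.0) and Upf3a (27.0 ± 6.36), whose ranges overlapped. In both mutants a gap in the ranges separated Upf2 from Smg1.

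**Figure D4:**
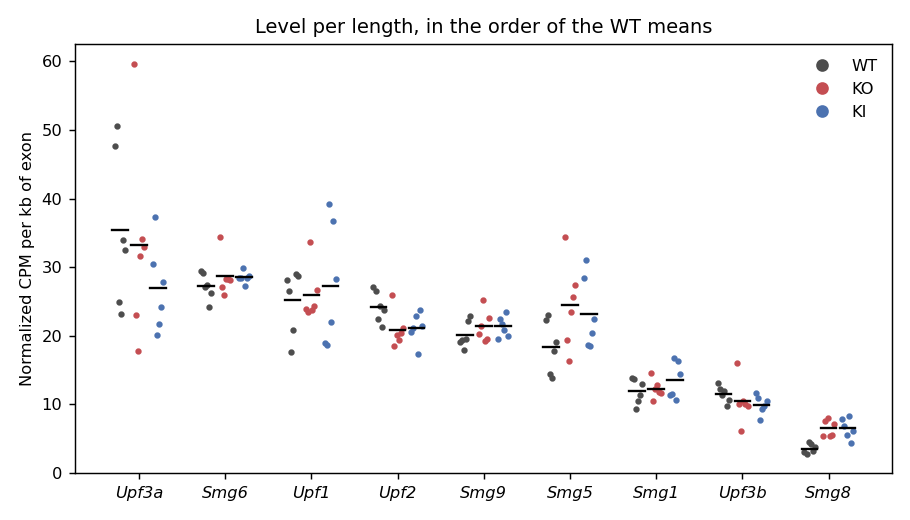
Normalized CPM per kilobase of exon (y axis, from 0) of each factor in every WT, KO and KI library (points, with the mean as a black line), in the order of the WT means. Upf3a has the highest WT mean, 35.5, and Smg8 the lowest, 3.55.

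For each factor the gene of most similar pattern was found by the root mean square difference of log2 CPM over the 18 libraries, after each gene was centred on its mean. Smg8 was nearest to Arhgap19 (0.14, where its own spread was 0.48), and its nearest other factor was Smg9 at 0.45, close to its own spread. Upf1 was nearest to Ppfia1 (0.07, own spread 0.31), Upf2 to Braf (0.08, own spread 0.17), Upf3a to Mprip (0.10, own spread 0.46) and Upf3b to Akna (0.11, own spread 0.28). Smg1 was nearest to Cplane1 (0.07, own spread 0.22), Smg5 to Wdr48 (0.07, own spread 0.35), Smg6 to Lrrc36 (0.06, own spread 0.10) and Smg9 to Nvl (0.08, own spread 0.12). No factor had another factor as its nearest gene. These libraries share differences of depth and cell makeup, and a likeness of pattern is given as a description.

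The other genes of the pathway were counted in 7 lists of 79 genes, of which 15 were called higher and 8 lower in KO, and 13 higher and 9 lower in KI. These counts are near the shares over all genes tested, 16.4% higher and 13.5% lower in KO and 16.1% higher and 15.4% lower in KI. The same shares are the reference for each list below, where the small number of genes limits what a count can show. The exon junction complex list, whose proteins mark spliced mRNAs for UPF3, had 4 of 10 genes called higher and 0 lower in both mutants, against 16.4% of all genes called higher in KO and 16.1% in KI, with a median log2 fold change of 0.11 in KO and 0.28 in KI, beside 0.03 and 0.05 over all genes tested. Rnps1 had 13.9 CPM in WT and 20.5 in KO (log2 fold change 0.56, adjusted p = 0.00270, edgeR). Rbm8a, the Y14 subunit of the core, had 12.9 CPM in WT and 18.7 in KO (0.54, adjusted p = 0.00362, edgeR). Casc3, another core subunit, had 47.1 and 64.0 CPM (0.44, adjusted p = 0.00583, edgeR), and Pym1, which takes the complex apart, 14.5 and 18.8 CPM (0.37, adjusted p = 0.0707, edgeR). The other core genes, Eif4a3 (0.14), Magoh (0.08) and Magohb (-0.14), were not called in KO (adjusted p from 0.598 to 0.803, edgeR). Once close pairs were summed, 1871 of all 23062 genes tested were called higher in KO and 1619 in KI. Of the 4 called genes of this list, 3 remained called in KO and 3 in KI. With the library labelled KI 4 also left out, 2 were called in KO and 0 in KI, where the log2 fold changes of the 4 genes in KI were 0.51 for Rbm8a, 0.51 for Casc3, 0.51 for Pym1 and 0.43 for Rnps1 (adjusted p from 0.111 to 0.187, edgeR).

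Among 13 accessory and termination factors, 2 were called higher and 3 lower in each mutant, with a median log2 fold change of 0.03 in KO and 0.11 in KI. Etf1, the release factor that recognises stop codons, fell from 188 CPM in WT to 101 in KO (-0.90, adjusted p = 0.000222, edgeR) and 89.6 in KI (-1.07, adjusted p = 2.78e-05, edgeR). Ncbp2, a subunit of the nuclear cap-binding complex, fell from 38.6 CPM to 24 in KO (-0.68, adjusted p = 0.000114, edgeR) and 23.9 in KI. Stau1, which brings UPF1 to double-stranded RNA, rose from 21.4 CPM to 34.3 in KO (0.68, adjusted p = 0.00103, edgeR) and 30.2 in KI, and Gspt2, a GTPase partner of the release factor, from 2.05 to 3.86 CPM in KO (0.91, adjusted p = 0.000888, edgeR) and 3.10 in KI. With close pairs summed, the same split of 2 higher and 3 lower was called in KO, and 0 higher and 2 lower in KI.

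Of 12 decapping and 5′ decay genes, 4 were called higher and 1 lower in KO, and 2 higher and 1 lower in KI, with a median log2 fold change of 0.09 and 0.14. Ddx6, a helicase of decapping complexes, rose from 41.3 CPM to 70.1 in KO (0.76, adjusted p = 0.000845, edgeR) and 69.7 in KI. Edc4, a scaffold of the decapping enzyme, rose from 103 CPM to 155 in KO (0.58, adjusted p = 0.00127, edgeR) and 174 in KI. Dcp1a, the activator of that enzyme, fell from 21.4 to 16 CPM in KO (-0.42, adjusted p = 0.0188, edgeR), while Dcp2, its catalytic subunit, rose from 6.16 to 8.13 CPM (0.40, adjusted p = 0.0597, edgeR). After summing close pairs, Ddx6 and Edc4 were the called genes of this list in both mutants.

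Of 15 deadenylation genes, 3 were called higher and 1 lower in KO, and 2 higher and 2 lower in KI, with a median of 0.10 and 0.17. Cnot8, a deadenylase of the CCR4-NOT complex, rose from 6.31 to 8.95 CPM in KO (0.50, adjusted p = 0.00768, edgeR), Cnot9 from 18.4 to 25.1 CPM (0.45, adjusted p = 0.0486, edgeR) and Cnot2 from 44.7 to 55.8 CPM (0.32, adjusted p = 0.0505, edgeR), and Cnot6l fell from 24.1 to 18.4 CPM (-0.39, adjusted p = 0.0898, edgeR). Summing close pairs left 1 called higher in KO and 0 in KI. Of 14 RNA exosome genes, 13 were tested, and 1 was called higher and 1 lower in KO and 2 of each in KI, with a median of 0.05 and 0.07. Exosc9 fell from 43.5 CPM to 28.1 in KO (-0.63, adjusted p = 0.00624, edgeR) and 26.9 in KI, and Exosc4 rose from 7.67 to 10.3 CPM in KO (0.42, adjusted p = 0.0307, edgeR). Summing close pairs left 0 exosome genes called higher and 1, Exosc9, called lower in each mutant, with Exosc4 at 0.41 in KO (adjusted p = 0.159, edgeR) and 0.45 in KI (adjusted p = 0.132, edgeR). Of the 5 chromatoid body genes, 0 were called in either mutant, with 1 in each at an unadjusted p under 0.05. Over all genes tested, 7199 of 21058 in KO and 7504 in KI reached that unadjusted p.

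Transcripts known as targets of NMD in other cells were read last. Of 10, 1 was called higher and 2 lower in KO, and 1 higher and 1 lower in KI, with a median log2 fold change of -0.19 and 0.11. Gadd45b, a stress response gene, rose from 0.864 ± 0.283 CPM in WT to 4.18 ± 1.28 in KO and 3.52 ± 1.05 in KI (SD, n = 6 each). Its log2 fold change was 2.27 in KO (adjusted p = 9.58e-07 for any change and 0.00319 past 1 log2 unit, edgeR) and 2.02 in KI (adjusted p = 4.15e-06 and 0.0208, edgeR). With close pairs summed, the adjusted p past 1 log2 unit was 0.0559 in KO and 0.122 in KI (edgeR's glmTreat). Gas5, a noncoding host transcript of small nucleolar RNAs, fell from 23.1 to 16.7 CPM in KO (-0.47, adjusted p = 0.0238, edgeR) and Ddit3, a stress response factor, from 43.5 to 34.2 CPM in KO (-0.35, adjusted p = 0.0926, edgeR) and 31.8 in KI. Gadd45b was, when close pairs were summed, the called gene of this list in both mutants. Gene counts do not separate isoforms, so transcripts with an early stop codon could not be told from the others.

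**Figure D5:**
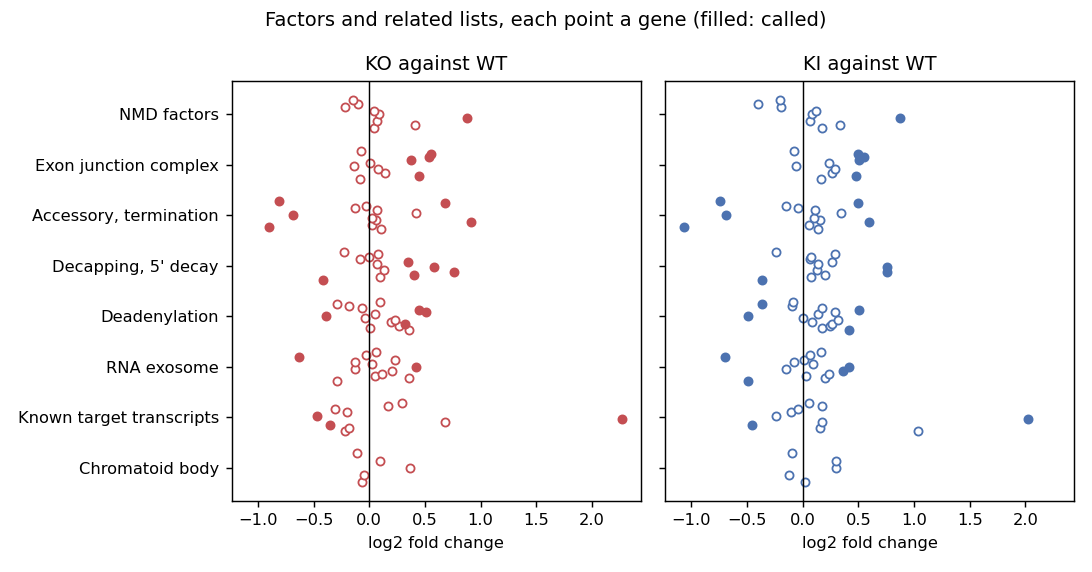
The log2 fold change (x axis) of each gene (point) in the 9 NMD factors and 7 related lists, in KO and KI against WT, with called genes filled. Gadd45b lies at 2.27 and 2.02, apart from the other target transcripts, and Smg8 at 0.87 is the filled point among the NMD factors.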

How the data were processed

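RNA of RS from WT, GRTH-KO and GRTH-KI mice was sequenced in 6 libraries per genotype. Trimming with cutadapt 3.4 and alignment to GRCm38 with STAR 2.7.8a were done by the authors, who deposited raw counts per gene of GENCODE M18, made with featureCounts (Subread 2.0.1) by strand with duplicates kept. The counts were used without change. Positions and exon lengths are those of the annotation, and 0 columns could not be tied to a library. The sources used here do not tie a library to its own mice, so p-values measure the spread between libraries, which may be technical. PCR reads without molecular identifiers are not independent molecules, and floors cover counting error only.

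Genes were filtered with filterByExpr and scaled with TMM in edgeR 4.0.16 (R 4.3.3, limma 3.58.1). All 18 libraries entered a single quasi-likelihood model of genotype. Changes of any amount were tested with glmQLFTest and changes past 1 log2 unit with glmTreat, at a Benjamini-Hochberg adjusted p of 0.1. Ratios within a library used counts plus 0.5 per kilobase of exon and exact permutation tests (scipy 1.17.1), with a threshold of 0.05. Scripts were tested on simulated data. The factors and lists were chosen with earlier results of these data known. The text names the 9 factors, Ddx25, per list at most 4 genes with the smallest adjusted p in KO, and the gene most like each factor, found on log2 CPM plus 0.5. The other core genes of the exon junction complex are named as well. Alternatives were DESeq2 1.42.0, its size factors, no filter or at least 10 counts in every library, an adjusted p of 0.05, a block for the replicate number, a fit of only the compared genotypes, close pairs summed, a ratio pseudocount of 5, and leaving out each library. No alternative moved the median change of all genes by 0.1 log2 units or more. Upstream stretches and their build come from RefSeq, which held all 9 factors. Figures were drawn with matplotlib 3.10.9 (Python 3.11.15). Small RNA data were not analysed here.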

Additional observations from a re-analysis of the deposited data

Results flagged for a closer look

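Of 36 groups of 6 libraries tested for a library far from the rest, 5 were flagged by the gap to the nearest library as a share of the range of the group. Chance flags about 1 in 20 groups. Upf1 was at 156 CPM in KO 3 (gap 0.682 of the range), Upf2 at 142 CPM in KO 1 (0.637) and Smg6 at 290.2 CPM in KO 1 (0.726). KO 1 had the lowest share of counts on mitochondrial genes in KO, 7.89%, and KO 3 the highest, 23.6%, and their part in these values was not tested. Ddx25 was at 56.9 CPM in the library labelled KI 4 (0.992), against at most 0.519 CPM in the other 5. The Upf3a to Upf3b ratio was 3.44 in KI 2 (0.712).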

How the results depend on the processing

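Smg8 was called in both mutants under all 28 alternatives, and Upf2 in 1, without KO 1. No called factor changed direction. The sign of the uncalled change differed in 3 alternatives for Upf1 and 3 for Upf3a in KO, in 2 for Smg1 in KO and in 1 for Upf1 in KI. The number of factors called higher in KO was 2, with Smg5 added, when at least 10 counts were required in every library, when only the compared genotypes were fitted (2), and with the replicate block (2, and 2 in KI). Leaving out 1 library gave 1 to 2 factors higher and 0 to 1 lower in KO. Over the 7 lists, summing close pairs gave 9 genes higher and 4 lower in KO and 6 higher and 3 lower in KI. Over all 23062 genes tested there, 1871 were higher and 1784 lower in KO, and 1619 and 1783 in KI. With the library labelled KI 4 also left out, the lists had 8 and 4 in KO and 3 and 4 in KI. All 23982 genes tested then had 1905 and 1827 in KO and 1275 and 1647 in KI. Leaving out 1 library gave 11 to 17 higher and 6 to 8 lower in KO, and 11 to 20 higher (20 without WT 6) and 5 to 10 lower (5 without WT 3) in KI. The cause was not tested, and summing pairs also leaves fewer libraries. The ratio tests passed under no alternative, and a design of 6 against 6 could reach an exact permutation p of 0.00216. With close pairs summed, KO and KI against WT have too few values to pass. With the library labelled KI 4 also left out, KI against KO has too few as well.

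The replicate numbers did not pair the libraries. Of 18 same-numbered pairs across genotypes, 7 had a correlation of deviations over 0.1 (from -0.50 to 0.54), and 5 of 18 libraries correlated best with their own number. The replicate block added Smg5 in KO (adjusted p = 0.0403, edgeR) and KI (adjusted p = 0.0896, edgeR). Of the factors, Smg8 had the fewest counts, from 214 per library, and Upf3a is limited by its spread between libraries rather than by depth.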
